A study of Mus musculus with 28 samples.

Results

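Spleen T cell transcriptomes of mice given rapamycin inside injected polymersomes (rPS) were set against those of mice given rapamycin by mouth as Rapamune (RO). The libraries were chosen by their titles, and 10 of the 28 libraries of the series entered the comparison, 5 in each group. Every mouse was a healthy male C57BL/6J animal of 8 to 12 weeks that received 1 dose per day, 11 doses in all, at 1 mg rapamycin per kg body weight. The rPS mice were injected under the skin of the neck with polymersomes (vesicles of a poly(ethylene glycol)-block-poly(propylene sulfide) polymer) that carried 60 mg polymer per kg along with the drug. The RO mice received the drug by gavage, without polymer. The groups therefore differed in route, carrier and polymer together, and the contribution of each cannot be told apart here. No group received the oral vehicle alone. After 11 days spleens were taken, red cells were lysed, and T cells labelled as CD3+ were sorted magnetically and sequenced in bulk, 1 library per mouse. The other libraries of the series came from mice injected with rapamycin in 0.2% carboxymethylcellulose (R, n = 6), mice injected with empty polymersomes (PS, n = 4) and untreated mice (NT, n = 7).

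Rapamycin binds the immunophilin FKBP12, encoded by Fkbp1a, and the complex inhibits mTOR complex 1, the kinase complex that couples nutrient and growth factor signals to protein synthesis, ribosome production and cell growth. In T cells this pathway drives the passage from quiescence into the cell cycle after antigen contact, and rapamycin is used as an immunosuppressant for that reason. Most splenic T cells of a healthy mouse are resting, so transcripts of the cell cycle come from a minority of the cells in such a sample.

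Totals ran from 4286885 to 9008499 expected counts per library in rPS and from 4721526 to 14153508 in RO. Levels are given below as CPM, the count scaled to the library's total, in rPS replicates 1, 2, 4, 5 and 7 and in RO replicates 1, 3, 4, 5 and 6, always in that order. RO replicate 7 was left out because its counts are 0 from part of chromosome 12 on. RO replicate 3 stood apart from the other RO libraries. Its Cd3e level, the marker of the sorted cells, was 46.9 CPM, against 237 to 281 CPM in the other 4 RO libraries and 122 to 347 CPM in the rPS libraries. Its monocyte and macrophage genes summed to 12700 CPM, against at most 2510 CPM in the other RO libraries and 3360 CPM in the rPS libraries. At the other end, rPS replicate 5 had the lowest sums of B cell, plasma cell, neutrophil and monocyte genes of the 10 libraries. Genes of the T cell receptor complex and its signalling summed lowest in rPS replicate 4, at 3880 CPM, beside 4080 CPM in RO replicate 3. That rPS library had Cd3e at 122 CPM and the highest B cell sum of the 10 libraries, 18700 CPM. Because of RO replicate 3, every comparison was run with all 10 libraries and again without it. Both runs kept rPS replicate 4.

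No single gene passed the test between the groups. In edgeR's quasi-likelihood test, 0 of 15174 genes tested (0.0%) had an adjusted p under 0.05, and the smallest adjusted p was 0.11. An unadjusted p under 0.05 was found for 858 genes (5.65%), 392 of them higher (2.58%) and 466 lower (3.07%) in rPS. The CPM of the groups did not overlap for 209 genes (1.38%), 55 of them higher (0.362%) and 154 lower (1.01%) in rPS. The median log2 fold change (rPS over RO) over all genes tested was -0.0046. DESeq2 called 40 genes (0.264%), 13 higher and 27 lower in rPS, and limma voom with sample quality weights called 1 (0.00659%), Syt6. Without RO replicate 3, edgeR called 0 of 15306 genes (0.0%), with 609 at an unadjusted p under 0.05 (3.98%), 315 higher (2.06%) and 294 lower (1.92%). The groups then did not overlap for 334 genes (2.18%), 73 higher (0.477%) and 261 lower (1.71%), and the median over all genes was 0.028. DESeq2 called 31 genes there (0.203%, 12 higher and 19 lower) and limma voom 1 (0.00653%). Since no gene was called by edgeR, the genes below are the 10 with the smallest p in each fit among those with a mean of at least 2 CPM over the libraries and a symbol other than a predicted gene's, and a set of lineage and pathway genes taken whatever their values, and the gene lists are described by their levels, counts and medians. Other list members named as examples were chosen after their values were seen.

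Cell cycle transcripts were at lower levels in rPS than in RO, and most members of the lists shared that direction. The log2 fold change was negative for all 26 tested members of the mitosis list, with a median of -0.89, beside -0.0046 for all genes. An unadjusted p under 0.05 was reached by 18 of the 26, all lower in rPS, where 3.07% of all genes reached it in that direction. The levels of the groups did not overlap for 6 of the 26, where 1.01% of all genes were lower in rPS without overlap. Their summed level was 108 to 317 CPM in rPS libraries and 317 to 486 CPM in RO libraries. Without RO replicate 3 the median was -0.95, with 14 members at an unadjusted p under 0.05 and 9 that did not overlap, and without both RO replicate 3 and rPS replicate 5 it was -0.74.

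The promoters of Pclaf, Cep55, Uhrf1 and Top2a, the cell cycle genes among those 10 other than a histone gene and Mybl1, are shown because their levels were lower together in rPS, whether or not they hold a motif. They are RefSeq sequences of build GRCm38.p6, 5′ to 3′ on the gene's strand, and capitals mark the CCAAT box (CCAAT, or ATTGG on the other strand) and the cell cycle homology region (TTTGAA, or TTCAAA on the other strand). The stretches are the 150 bases just before the annotated start, Pclaf at chr9:65890173-65890322, Cep55 at chr19:38054834-38054983 and Uhrf1 at chr17:56303187-56303336 on the plus strand and Top2a at chr11:99024190-99024339 on the minus strand.
Pclaf: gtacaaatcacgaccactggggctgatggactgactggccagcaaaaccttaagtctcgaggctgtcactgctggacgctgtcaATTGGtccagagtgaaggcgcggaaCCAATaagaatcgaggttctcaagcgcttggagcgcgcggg
Cep55: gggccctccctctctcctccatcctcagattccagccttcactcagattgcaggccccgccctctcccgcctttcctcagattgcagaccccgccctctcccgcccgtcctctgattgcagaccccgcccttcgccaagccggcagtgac
Uhrf1: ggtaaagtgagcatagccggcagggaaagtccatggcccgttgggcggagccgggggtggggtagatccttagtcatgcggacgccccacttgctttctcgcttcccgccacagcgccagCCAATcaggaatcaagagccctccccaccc
Top2a: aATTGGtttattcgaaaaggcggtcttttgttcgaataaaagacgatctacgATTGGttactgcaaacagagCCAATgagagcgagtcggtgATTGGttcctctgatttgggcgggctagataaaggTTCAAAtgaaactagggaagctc
Neither motif was found for Cep55, which says only that these letters are not in the window searched. In the 250 bases before the start, CCAAT was found on either strand in 17 of the 21 mitosis promoters given (81.0%), against 34.5% of all 27025 promoters. TTTGAA was found in 7 of the 21 (33.3%), against 16.3% of all promoters. A match is a description of letters and does not show binding.

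Pclaf, a small protein that binds the replication clamp PCNA, had the third smallest p of all genes. Between it and Syt6 stood the histone gene Hist1h2bk, which averaged 0.633 CPM in rPS and 3.285 CPM in RO, under the mean of 2 CPM required. Pclaf was at 3.55, 4.22, 2.80, 1.94 and 2.53 CPM in rPS, against 13.8, 11.2, 8.85, 8.66 and 11.7 CPM in RO. Every rPS library lay below every RO library. The log2 fold change was -1.83 ± 0.26 (SE), with an edgeR adjusted p of 0.11 and a DESeq2 adjusted p of 1.49e-06, and it was -1.77 ± 0.28 without RO replicate 3. In a fit of all 27 libraries in which the 5 groups share 1 estimate of the spread, edgeR gave Pclaf an adjusted p of 0.000932, and 3 genes (0.0175%) were called in all, Pclaf, Col5a3 and Igkv12-46, each lower in rPS. Without the 6 libraries of that fit with Cd3e under 60 CPM, 8 genes (0.0471%) were called, with Syt6, Dmbt1 and Bcl2 higher and Pclaf, Oas3, Igkv12-46, Col5a3 and Ighg2c lower in rPS.

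Top2a, the topoisomerase that untangles sister chromatids, was at 33.5, 26.3, 24.3, 11.7 and 14.2 CPM in rPS, against 51.5, 64.7, 53.6, 52.6 and 64.4 CPM in RO. The groups did not overlap, and the log2 fold change was -1.39 ± 0.27 with an edgeR adjusted p of 0.553. Cep55, needed for the final cut between daughter cells, was at 1.68, 0.999, 1.17, 0.518 and 0.975 CPM in rPS, against 4.02, 4.17, 3.14, 2.72 and 4.25 CPM in RO. Its log2 fold change was -1.80 ± 0.33, again without overlap. Cep55 is not on the mitosis list. Among the members of that list, the kinesin Kif20a averaged 3.54 ± 1.32 CPM in rPS and 7.80 ± 1.34 CPM in RO (SD, n = 5 each), and the spindle checkpoint kinase Bub1b 6.84 ± 3.23 CPM in rPS and 14.8 ± 2.57 CPM in RO. Neither gene's groups overlapped. Cdk1, the kinase that starts mitosis, averaged 1.47 ± 0.899 CPM in rPS and 4.08 ± 1.14 CPM in RO, with overlap through 1 rPS and 1 RO library. Mki67, a widely used marker of cycling cells, overlapped as well, at 69.6 ± 34.8 CPM in rPS and 117 ± 32 CPM in RO, with a log2 fold change of -0.74 ± 0.35.

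Replication genes outside mitosis showed a smaller difference. Of 29 S phase and DNA replication genes, 25 had a negative log2 fold change, with a median of -0.25 with and without RO replicate 3. An unadjusted p under 0.05 was reached by 5, all lower in rPS (3.07% of all genes). The groups did not overlap for 2, Pclaf and Uhrf1 (1.01% of all genes lower in rPS). Uhrf1, which brings the maintenance DNA methyltransferase to newly copied DNA, was at 14.8, 15.2, 16.6, 8.03 and 11.7 CPM in rPS, against 32.8, 25.1, 27.4, 24.9 and 34.4 CPM in RO. All rPS values were below all RO values, with a log2 fold change of -1.12 ± 0.21. The ribonucleotide reductase subunit Rrm2 averaged 8.68 ± 4.44 CPM in rPS and 14.3 ± 2.47 CPM in RO, and its log2 fold change was -0.72 ± 0.36 with an edgeR adjusted p of 0.806.

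Most genes of the histone list had lower mean levels in rPS, but their sums overlapped. The list was written for histone genes transcribed during DNA replication, and it also holds H1f0, which is not one of them. The 22 listed summed to 410 to 1350 CPM in rPS and, without RO replicate 3, the lowest of its group, 1170 to 1340 CPM in RO. The highest of the 10 libraries was rPS replicate 4. Of 22 listed, 21 had a negative log2 fold change, with a median of -0.71 (-0.73 without RO replicate 3). Lower in rPS, 5 reached an unadjusted p under 0.05 (3.07% of all genes) and 3 did not overlap (1.01% of all genes). Over every tested gene of the Hist1 and Hist2 clusters, a set added after the data were seen, 52 of 55 were negative, with a median of -0.72. Of the 55, 20 reached an unadjusted p under 0.05 and 13 did not overlap, all lower in rPS, beside the same shares of all genes. That set summed to 633 to 1870 CPM in rPS and 1230 to 1840 CPM in RO. Hist1h2bf, an H2B gene, was at 1.31, 2.55, 2.33, 1.68 and 2.92 CPM in rPS, against 5.72, 5.79, 4.14, 5.19 and 7.62 CPM in RO. Its log2 fold change was -1.39 ± 0.29 with an edgeR adjusted p of 0.74. Histone genes are near copies of each other, and reads may have been split among them. The DNA repair gene Brca1, which acts on replication breaks, averaged 7.95 ± 1.79 CPM in rPS and 12.3 ± 1.95 CPM in RO, and the groups overlapped.

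**Figure D1:**
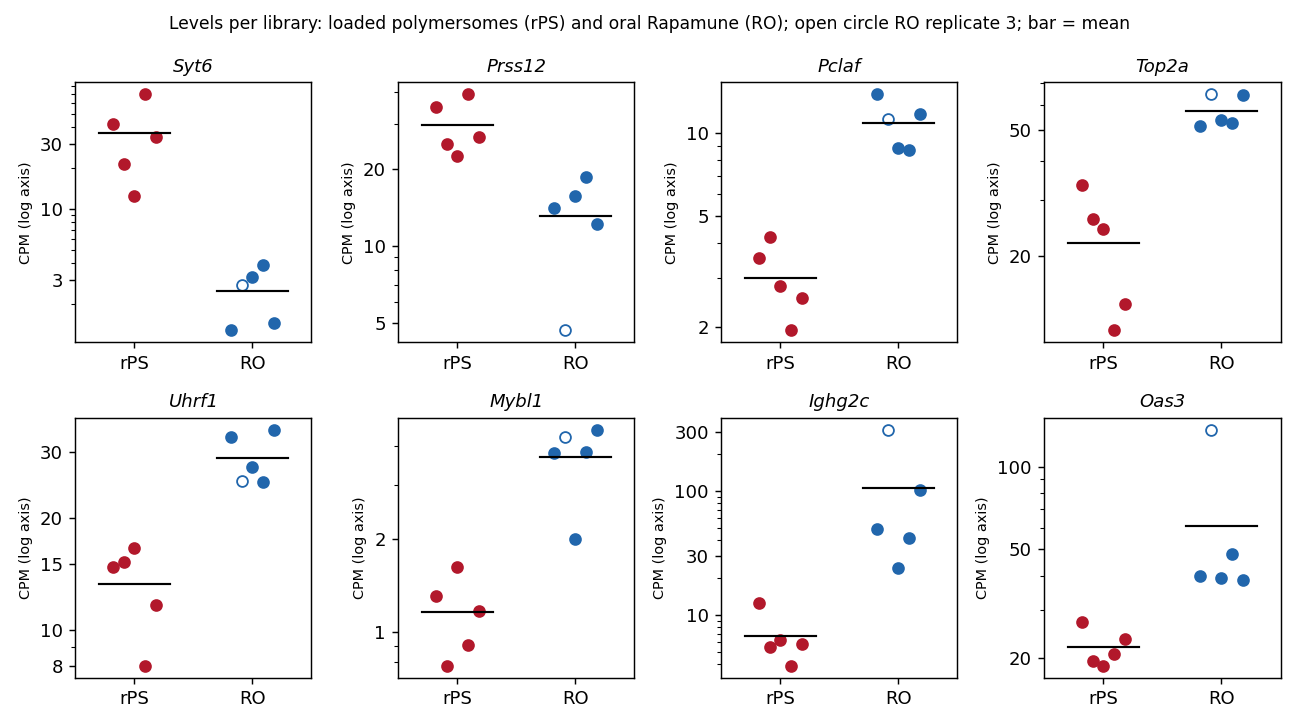
Level of 8 genes in each library in CPM on log axes, rPS left and RO right, with 1 point per mouse, a bar at the mean and RO replicate 3 as an open circle. Syt6 and Prss12 lie higher in every rPS library, and Pclaf, Top2a, Uhrf1, Mybl1, Ighg2c and Oas3 lie lower in every rPS library.

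Transcripts of germinal centre B cells, which divide fast, were among those lower in rPS, although the sort was for T cells. Mybl1, a MYB family transcription factor of germinal centre B cells and male germ cells, was at 1.31, 0.777, 1.63, 0.906 and 1.17 CPM in rPS, against 3.81, 4.31, 2.0, 3.83 and 4.54 CPM in RO. The groups did not overlap, and the log2 fold change was -1.71 ± 0.34 (edgeR adjusted p of 0.553). Nuggc, a nuclear GTPase of germinal centre B cells, averaged 0.421 ± 0.440 CPM in rPS and 3.06 ± 1.05 CPM in RO, and 1 rPS library had none. Of the 12 listed germinal centre genes 11 passed the filter on low counts, 10 of them with a negative log2 fold change and a median of -0.93. Their median was -0.39 over the 9 that passed without RO replicate 3, and their summed level overlapped, at 62.5 to 458 CPM in rPS and 265 to 313 CPM in RO. General B cell genes were negative in 24 of 24 cases with a median of -0.34 (-0.47 without RO replicate 3), none at an unadjusted p under 0.05. With 1 library left out that median ran from -0.70 without rPS replicate 4 to -0.05 without rPS replicate 5. These genes summed to 2100 to 18700 CPM in rPS and 9770 to 15600 CPM in RO. No listed B cell gene was at 0 in any library. What part B lineage cells had in the lower cell cycle levels was not tested, and in bulk RNA fewer cells of a type and less RNA per cell cannot be told apart.

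Many heavy chain and kappa antibody transcripts were at lower levels in rPS, while the lambda segments did not share one direction. Ighg2c, the heavy chain constant gene of IgG2c, was at 12.5, 5.55, 6.30, 3.88 and 5.85 CPM in rPS, against 49.1, 313, 23.7, 42.1 and 101 CPM in RO. The groups did not overlap. The log2 fold change was -4.06 ± 0.75 (edgeR adjusted p of 0.475), and -2.95 ± 0.43 (adjusted p of 0.204) without RO replicate 3, which held the highest value. Ighg2b averaged 16.3 ± 7.32 CPM in rPS and 75.1 ± 52.4 CPM in RO, and Ighg3 14.4 ± 6.63 CPM in rPS and 38.5 ± 19.8 CPM in RO, both without overlap. The kappa variable segment Igkv12-46 was at 2.81, 3.0, 2.33, 0.906 and 3.51 CPM in rPS, against 27.7, 12.6, 4.86, 19.2 and 26.6 CPM in RO. Its log2 fold change was -2.84 ± 0.47 (edgeR adjusted p of 0.311), and the heavy variable segment Ighv1-4 stood at -2.49 ± 0.54, both without overlap. Variable segments resemble one another, so counts may be shared between neighbours in sequence.

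The plasma cell list as a whole lay lower in rPS as well. Of its 24 tested members 22 were negative, with a median of -0.77, 7 reached an unadjusted p under 0.05 and 6 did not overlap. Those 7 and 6 were all lower in rPS, as were 3.07% and 1.01% of all genes by the same measures. Without RO replicate 3 the median was -0.54, with 7 at an unadjusted p under 0.05 and 6 that did not overlap. Besides the IgG genes, the members without overlap were Eaf2, a transcription elongation factor partner, Sec11c, a signal peptidase subunit, and Txndc5, a disulfide isomerase of the endoplasmic reticulum. Txndc5 averaged 116 ± 31.9 CPM in rPS and 184 ± 36.8 CPM in RO. Other secretory genes overlapped, among them Jchain, which joins IgM and IgA subunits, at 31.2 to 244 CPM in rPS and 121 to 538 CPM in RO, and Igkc, the kappa constant gene, at 108 to 809 CPM in rPS and 423 to 1480 CPM in RO. The list's summed level ran from 1510 to 5130 CPM in rPS and from 4100 to 8560 CPM in RO. Of 60 kappa variable segments tested, 59 were negative, with a median of -1.17 (-0.77 without RO replicate 3). An unadjusted p under 0.05 was reached by 28 of the 60, all lower in rPS (3.07% of all genes). Of 73 heavy variable segments, 62 were negative, with a median of -0.76 (-0.52 without RO replicate 3). At an unadjusted p under 0.05, 20 were lower (3.07% of all genes) and 3 higher (2.58% of all genes) in rPS. The 3 lambda variable segments had a median of -0.29 (0.25 without RO replicate 3), with 1 higher in rPS and 0 lower at an unadjusted p under 0.05 in edgeR, and summed to 33.9 to 156 CPM in rPS and 42.3 to 141 CPM in RO. DESeq2 called 40 of all 15174 genes tested (0.264%). Among them were 12 of the heavy and kappa variable segments, 11 of them lower in rPS, 2 IgG constant genes and 4 Hist1 genes. Without RO replicate 3 it called 31 of 15306 genes (0.203%). These included 7 such segments, 5 lower and 2 higher in rPS, 2 immunoglobulin constant genes and 1 Hist1 gene.

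Syt6 had the smallest p of all genes and was at a higher level in rPS. It encodes synaptotagmin 6, of a family of membrane fusion proteins. Its levels were 42.1, 21.1, 12.4, 69.4 and 33.7 CPM in rPS, against 1.27, 2.76, 3.14, 3.83 and 1.45 CPM in RO. The lowest rPS library was above the highest RO library. The log2 fold change was 3.80 ± 0.50, with an edgeR p of 9.53e-06 and an adjusted p of 0.11, a limma voom adjusted p of 0.00409 and a DESeq2 adjusted p of 6.35e-12. Without RO replicate 3 it was 3.90 ± 0.55 (edgeR adjusted p of 0.204).

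Fewer genes lay higher in rPS than lower without overlap. Prss12, the secreted serine protease neurotrypsin, was at 35, 25.1, 22.4, 39.2 and 26.7 CPM in rPS, against 14.0, 4.66, 15.7, 18.6 and 12.2 CPM in RO. Its groups did not overlap, with a log2 fold change of 1.22 ± 0.30 (edgeR adjusted p of 0.74) and 1.02 ± 0.21 without RO replicate 3. Dmbt1, a secreted scavenger receptor family protein, was at 2.99, 17.4, 25, 8.16 and 16.8 CPM in rPS, against 2.12, 21.5, 2.28, 2.35 and 1.25 CPM in RO. The high RO value was that of replicate 3, and the log2 fold change was 1.10 ± 0.85 with it and 2.87 ± 0.57 without it. The libraries high in Dmbt1 were also high in pancreatic enzyme transcripts, which are given below. Lars2, the mitochondrial leucyl-tRNA synthetase, went the other way, at 34.1 to 47.9 CPM in rPS and 48.3 to 177 CPM in RO, with a log2 fold change of -1.18 ± 0.30.

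Genes induced by type I interferon were lower in rPS. Of 32 tested, 31 had a negative log2 fold change, with a median of -0.66, 17 reached an unadjusted p under 0.05 and 8 did not overlap. Those 17 and 8 were all lower in rPS, as were 3.07% and 1.01% of all genes by the same measures. The summed level of the list was 1990 to 2540 CPM in rPS and 2560 to 4250 CPM in RO, so that the highest rPS library lay just below the lowest RO library. Part of the size came from RO replicate 3: without it the median was -0.36, with 11 members at an unadjusted p under 0.05 and 9 without overlap. Without both RO replicate 3 and rPS replicate 5 it was -0.34.

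Oas3 makes the second messenger that activates the antiviral nuclease RNase L. Its promoter is shown because it holds the letters of the interferon-stimulated response element, searched as GAAA, any 2 bases and GAAA on both strands and given in capitals, within the 150 bases before the start, at chr5:120777660-120777809 on the minus strand (RefSeq, GRCm38.p6).
Oas3: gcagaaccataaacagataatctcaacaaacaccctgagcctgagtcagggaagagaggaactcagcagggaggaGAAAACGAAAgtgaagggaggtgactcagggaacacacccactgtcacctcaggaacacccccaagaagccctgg
That element was found in 11 of the 22 interferon promoters given (50%), against 3.04% of all promoters. Oas3 was at 27.1, 19.5, 18.7, 20.6 and 23.4 CPM in rPS, against 40.0, 137, 39.1, 48.0 and 38.5 CPM in RO. The groups did not overlap with or without RO replicate 3, the highest library. The log2 fold change was -1.54 ± 0.41 (edgeR adjusted p of 0.765), and -0.88 ± 0.15 (adjusted p of 0.287) without that library.

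Other interferon genes followed the same order. Mx2, a dynamin-like antiviral GTPase, was at 2.62, 2.11, 2.80, 1.55 and 2.73 CPM in rPS, against 4.24, 10.7, 4.14, 4.82 and 6.37 CPM in RO. The groups did not overlap, with a log2 fold change of -1.41 ± 0.36 with RO replicate 3 and -1.02 ± 0.28 without it. Xaf1, an interferon-induced partner of the apoptosis inhibitor XIAP, overlapped slightly, at 10.4 ± 2.01 CPM in rPS and 17.2 ± 3.20 CPM in RO, with a log2 fold change of -0.73 ± 0.22. Oasl2 averaged 8.33 ± 2.66 CPM in rPS and 30.1 ± 39.1 CPM in RO, where RO replicate 3 alone had 100 CPM. Its log2 fold change was -1.98 ± 0.70 with that library and -0.57 ± 0.24 without it, and the closest rPS and RO libraries were both at 11.1 CPM.

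**Figure D2:**
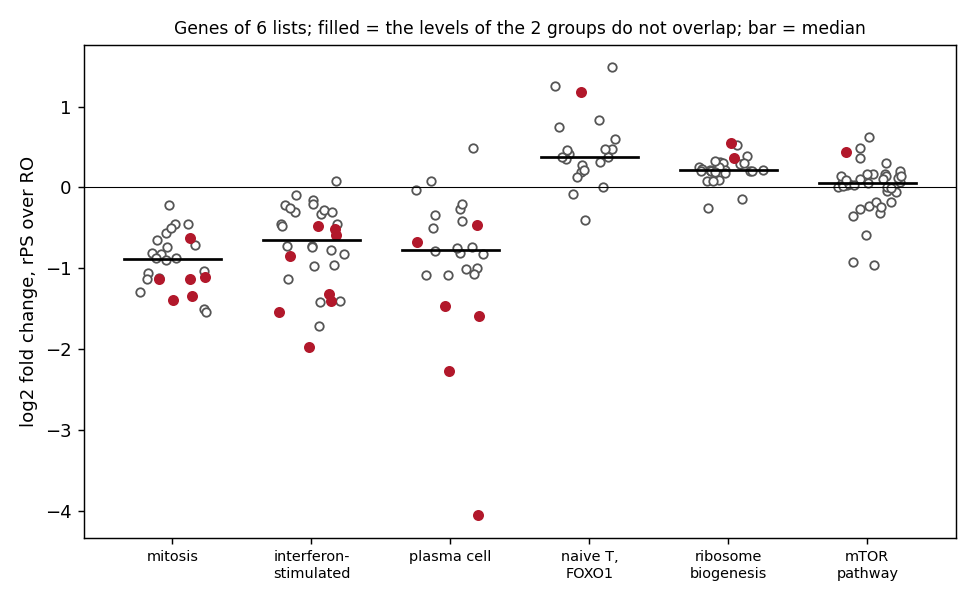
Log2 fold change (rPS over RO) of every tested gene of 6 lists, 1 point per gene, filled where the CPM of the groups did not overlap, with a bar at the list's median. All 26 mitosis genes lie below 0, 31 of 32 interferon genes and 22 of 24 plasma cell genes do so too, while 19 of 21 naive T cell genes and 26 of 28 ribosome biogenesis genes lie above 0.

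The markers of the sorted cells did not set the groups apart. Of 25 genes of the T cell receptor complex and its signalling, 22 had a positive log2 fold change with a median of 0.13, 0 reached an unadjusted p under 0.05 in edgeR, and the median was -0.04 without RO replicate 3. Cd3e was at 238, 206, 122, 347 and 199 CPM in rPS, against 253, 46.9, 256, 281 and 237 CPM in RO, with a log2 fold change of 0.09 ± 0.39 that turned to -0.16 ± 0.24 without RO replicate 3. Cd4 and Cd8a, the coreceptors of helper and cytotoxic T cells, had log2 fold changes of 0.23 ± 0.34 and 0.19 ± 0.45, and 0.04 ± 0.30 and -0.04 ± 0.37 without RO replicate 3. Cd4 over Cd8a, as a log2 ratio within each library, averaged -1.137 ± 0.944 in rPS and -1.223 ± 0.539 in RO (SD, n = 5 each). The difference was 0.086, with an exact two-sided permutation p of 0.865, and it was 0.239 (exact p of 0.667) without RO replicate 3. The ratio varied widely within rPS, between -2.42 and -0.02. Foxp3, the transcription factor of regulatory T cells, was at 16.8 to 40.9 CPM in rPS and 14.0 to 43.7 CPM in RO, and the 17 regulatory T cell genes tested had a median of -0.22 (-0.15 without RO replicate 3). With 1 library left out it ran from -0.33 to 0.08, turning sign without RO replicate 5.

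Genes of naive T cells and targets of FOXO1, a factor that keeps T cells quiescent and recirculating, tended to higher levels in rPS. Of 21 tested, 19 had a positive log2 fold change, with a median of 0.38 (0.25 without RO replicate 3), and 4 reached an unadjusted p under 0.05, where 2.58% of all genes did so in that direction. Without both RO replicate 3 and rPS replicate 5 the median was 0.07. Il7r, the receptor for the survival cytokine IL-7, was at 503, 308, 160, 1040 and 265 CPM in rPS, against 154, 43.2, 216, 223 and 195 CPM in RO. The groups overlapped through rPS replicate 4, the lowest of its group in T cell genes. Igfbp4, a binding protein for insulin-like growth factors, was the 1 member without overlap (0.362% of all genes), at 628 ± 129 CPM in rPS and 286 ± 160 CPM in RO. Tob1, an antiproliferative protein of quiescent T cells, was at 16.4 to 80.0 CPM in rPS and 13.6 to 25.1 CPM in RO, with a log2 fold change of 1.26 ± 0.41 (edgeR adjusted p of 0.806).

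Effector and cytotoxic genes lay lower in rPS, with a smaller difference when RO replicate 3 was left out. Of 26 tested, 22 were negative, with a median of -0.56. Of the 26, 9 reached an unadjusted p under 0.05, all lower in rPS (3.07% of all genes), and 2 did not overlap (1.01%). Without RO replicate 3 the median was -0.26 over the same 26 genes and -0.21 over the 27 tested there. The 2 without overlap were Eomes, a T-box factor of memory and cytotoxic T cells, and Ly6c2, a surface protein of memory CD8 T cells and monocytes. Eomes was at 32.7, 31.2, 29.2, 33.8 and 27.1 CPM in rPS, against 45.5, 41.3, 49.7, 41.1 and 48.3 CPM in RO. Its log2 fold change was -0.55 ± 0.13 and -0.53 without RO replicate 3, with an edgeR adjusted p of 0.74 in the full set and a DESeq2 adjusted p of 0.02148. Gzmb, the protease granzyme B, was at 1.5 to 2.55 CPM in rPS and 1.06 to 12.4 CPM in RO, and Klrg1, a receptor of terminal effector cells, at 0.233 to 2.11 CPM in rPS and 2.1 to 6.43 CPM in RO. NK cell genes were negative in 17 of 17 cases, with a median of -0.49 (-0.35 without RO replicate 3). Of the 17, 3 reached an unadjusted p under 0.05, lower in rPS (3.07% of all genes), and none was without overlap. Without RO replicate 3, 0 of the 17 NK cell genes reached it. Their sum was 119 to 286 CPM in rPS and 185 to 810 CPM in RO. Ncr1, the activating receptor that defines NK cells, was detected in every library, at 1.68 to 7.44 CPM in rPS and 6.31 to 15.8 CPM in RO. The part that NK cells had in the cytotoxic gene levels was not tested.

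Genes of the common gamma chain cytokine receptors, of the JAK kinases and STAT5 that carry their signal, and of its targets were more often higher in rPS. Of 19 listed, 16 had a positive log2 fold change, with a median of 0.26 (0.23 without RO replicate 3), 6 reached an unadjusted p under 0.05, all higher in rPS (2.58% of all genes), and 2 did not overlap (0.362% of all genes). The 2 were Bcl2 and Pim2. Bcl2, which holds back mitochondrial cell death, was at 1010, 681, 530, 1200 and 741 CPM in rPS, against 425, 195, 447, 488 and 420 CPM in RO. All rPS libraries lay above all RO libraries, with a log2 fold change of 1.10 ± 0.26 (edgeR adjusted p of 0.74, DESeq2 adjusted p of 0.02394) and 0.95 without RO replicate 3. Pim2, a serine kinase that promotes survival and growth, was at 71.8, 80.0, 85.8, 138 and 90.8 CPM in rPS, against 62.5, 25.4, 53.7, 60.4 and 58.3 CPM in RO. The negative feedback gene Socs1 averaged 69.7 ± 42.4 CPM in rPS and 28.9 ± 15 CPM in RO and overlapped. With 1 library left out the median of the list ran from 0.07 to 0.41, and without both RO replicate 3 and rPS replicate 5 it was 0.02. Within the BCL2 family, 10 of 15 genes were negative, with a median of -0.26 (-0.03 without RO replicate 3). The death effector Bak1 averaged 22.3 ± 8.11 CPM in rPS and 41.5 ± 12.7 CPM in RO, and the death trigger Bbc3 (PUMA) 55.4 ± 21.6 CPM in rPS and 28.2 ± 8.06 CPM in RO.

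Immediate early genes, which respond within minutes to stimulation or handling, varied widely among the rPS libraries. Of 22, 17 had a positive log2 fold change with a median of 0.46 (0.58 without RO replicate 3), and none was without overlap. Their sum ran from 1400 to 9930 CPM in rPS and from 1780 to 3090 CPM in RO. Junb, a subunit of the AP-1 factor, was at 104, 122, 1470, 919 and 743 CPM in rPS, against 202, 210, 118, 238 and 236 CPM in RO. The first 2 rPS libraries lay within or below the RO range, and the other 3 above it. Myc, the growth transcription factor, averaged 134 ± 54.9 CPM in rPS and 68.8 ± 23.6 CPM in RO, with a log2 fold change of 1.00 ± 0.33 (edgeR adjusted p of 0.806).

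The drug's binding protein and the core genes of its target complex had log2 fold changes near 0, and no gene of the pathway passed the test. Fkbp1a had a log2 fold change of 0.03 ± 0.13, at 81.0 ± 11.5 CPM in rPS and 79.6 ± 10.1 CPM in RO. Mtor, the kinase, stood at 0.17 ± 0.14, and Rptor, the subunit that recruits substrates to complex 1, at 0.16 ± 0.15. Rps6, whose protein is phosphorylated downstream of mTOR, averaged 602 ± 121 CPM in rPS and 602 ± 103 CPM in RO. Transcript levels of the pathway's genes do not measure the activity of the kinase. Of 39 pathway genes tested, 25 were positive with a median of 0.06 and a range from -0.96 ± 0.71 for Deptor, an inhibitor of mTOR, to 0.63 ± 0.24 for Rragd, a GTPase that recruits mTOR complex 1 to lysosomes. Deptor stood at 0.26 ± 0.45 without RO replicate 3. Of the 39, 4 reached an unadjusted p under 0.05, all higher in rPS (2.58% of all genes), and 1 did not overlap (0.362%). That gene was Sesn1, a stress-induced inhibitor of mTOR complex 1, at 118, 120, 130, 141 and 119 CPM in rPS, against 98.9, 57.4, 95.2, 116 and 102 CPM in RO. Pdcd4, which restrains translation and is removed downstream of mTOR, averaged 350 ± 102 CPM in rPS and 251 ± 54.5 CPM in RO, and overlapped.

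Ribosome production genes were slightly higher in rPS. Of 28 ribosome biogenesis genes, 26 had a positive log2 fold change, with a median of 0.22 (0.14 without RO replicate 3). Higher in rPS, 3 reached an unadjusted p under 0.05 (2.58% of all genes) and 2 did not overlap (0.362% of all genes). These 2 were Ncl (nucleolin, of the nucleolus) and Nolc1, a nucleolar chaperone. Ncl was at 600.0, 521, 643, 609 and 647 CPM in rPS, against 518, 259, 433, 407 and 469 CPM in RO, the lowest being RO replicate 3. Its log2 fold change was 0.55 ± 0.15, and 0.45 without that library. Nop56, a core protein of the particles that modify ribosomal RNA, stood at 0.53 ± 0.17 (edgeR adjusted p of 0.806). The 36 cytosolic ribosomal protein and elongation factor genes had a median of 0.19 (0.16 without RO replicate 3), with 27 positive. Of the 36, 1 reached an unadjusted p under 0.05, higher in rPS, where 2.58% of all genes did so. Cholesterol and fatty acid synthesis genes had a median of -0.13 in both fits, with 24 of 30 negative in the full set. Glycolysis genes had a median of -0.19 (0.0 without RO replicate 3) and nuclear genes of oxidative phosphorylation one of -0.19 (-0.12 without RO replicate 3). Of the 24 and 28 tested, 2 of each list reached an unadjusted p under 0.05, lower in rPS, where 3.07% of all genes did so.

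**Figure D3:**
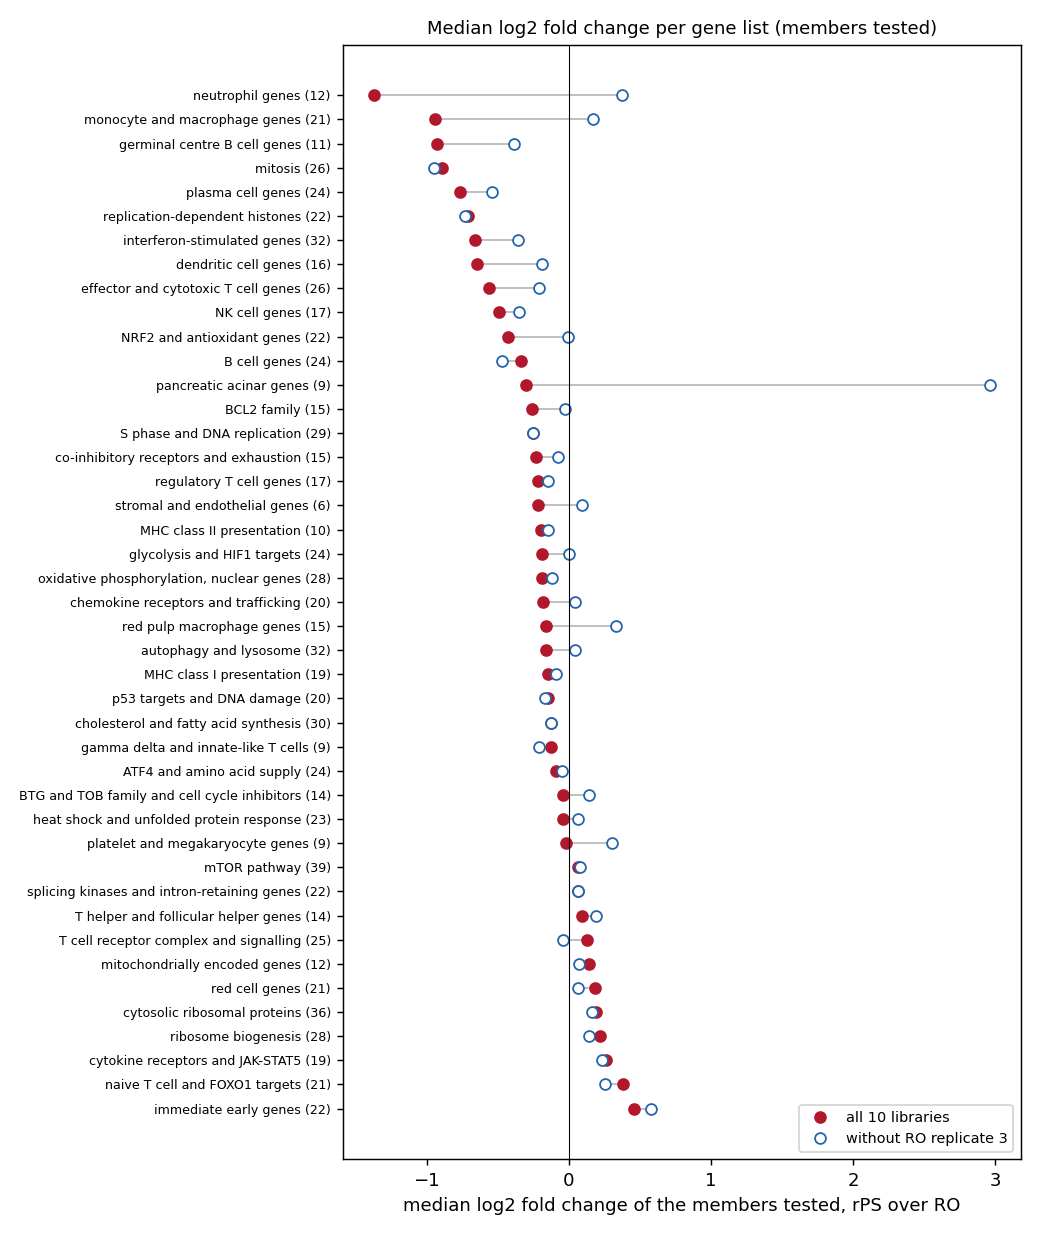
Median log2 fold change (rPS over RO) of the tested members of all 43 gene lists, with the number tested in brackets, filled for all 10 libraries and open without RO replicate 3. Mitosis, histone and S phase medians nearly coincide in both fits, while the neutrophil, monocyte and macrophage, and pancreatic acinar medians lie on opposite sides of 0.

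Markers of myeloid cells and of the pancreas depended on single libraries. Neutrophil genes had a median of -1.37 with RO replicate 3 and 0.37 without it, and monocyte and macrophage genes -0.94 with it and 0.17 without it. Lyz2, lysozyme of myeloid cells, was at 305, 312, 213, 18.9 and 246 CPM in rPS, against 212, 3200, 275, 180 and 201 CPM in RO. The log2 fold change was -2.04 ± 1.00 with RO replicate 3 and 0.05 ± 0.55 without it. S100a8, a neutrophil calcium-binding protein, did not pass the filter and was at 0.518 to 1.40 CPM in rPS and 0.866 to 13.1 CPM in RO. Of the 22 pancreatic acinar genes, 9 passed the filter, with a median of -0.30 in the full set and 2.96 without RO replicate 3. In the latter fit 7 of them reached an unadjusted p under 0.05, all higher in rPS (2.06% of all genes). Their sum was 20.2 to 244 CPM in rPS and 11.8 to 482 CPM in RO, with RO replicate 3 the highest. The digestive enzyme Cpa1 was at 0.935, 17.3, 11.9, 2.07 and 7.21 CPM in rPS, against 2.12, 31.4, 0.571, 0.618 and 0.290 CPM in RO. The pancreas lies next to the spleen, and whether tissue was carried over was not tested.

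**Figure D4:**
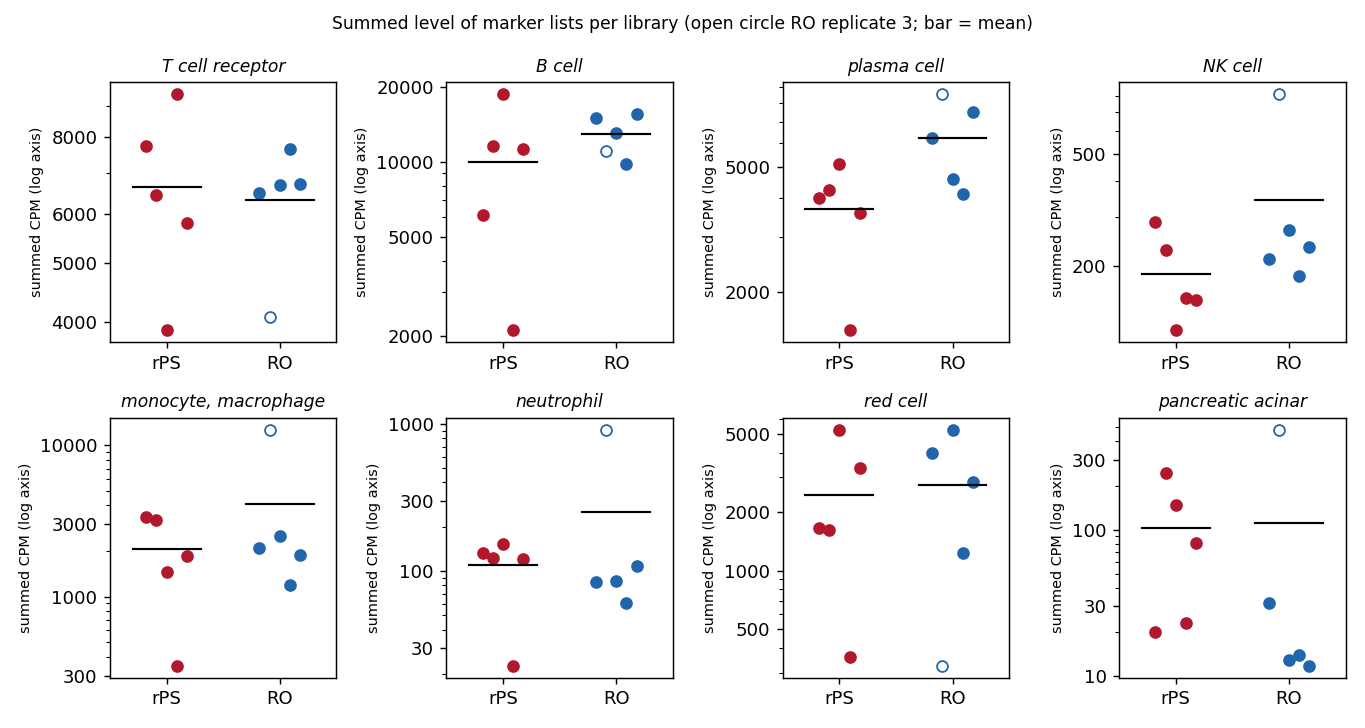
Summed CPM of 8 marker lists in each library on log axes, rPS left and RO right, with a bar at the mean and RO replicate 3 as an open circle. RO replicate 3 is the highest of the RO libraries in NK, monocyte and macrophage, neutrophil, plasma cell and pancreatic genes and the lowest in T cell receptor genes (4080 CPM), and rPS replicate 5 is the lowest rPS library in B cell genes (2100 CPM).

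The levels of the leading genes in the other groups of the series are given beside these, as a description, since all comparisons share libraries. Syt6 averaged 35.7 ± 22 CPM in rPS (n = 5), 2.49 ± 1.10 CPM in RO (n = 5), 15 ± 8.89 CPM in R (n = 6), 1.23 ± 0.592 CPM in PS (n = 4) and 0.998 ± 1.23 CPM in NT (n = 7). The rPS and R libraries were the high ones, apart from R replicate 3 at 0.147 CPM. That library had Cd3e at 9.58 CPM, and 4 of the 7 NT libraries had Cd3e between 18.5 and 44.9 CPM, so the R and NT means include libraries poor in transcripts of the sorted cells. Pclaf averaged 3.01 ± 0.89 CPM in rPS, 10.8 ± 2.13 CPM in RO, 4.98 ± 1.26 CPM in R, 14.6 ± 1.87 CPM in PS and 21.6 ± 4.95 CPM in NT. For Pclaf all rPS values lay under those of RO, PS and NT, and RO overlapped with PS and NT. Top2a averaged 22 ± 8.99 CPM in rPS, 57.3 ± 6.62 CPM in RO, 40.0 ± 13.6 CPM in R, 63.3 ± 9.81 CPM in PS and 121 ± 43.8 CPM in NT. Oas3 averaged 21.9 ± 3.44 CPM in rPS, 60.6 ± 43.1 CPM in RO, 36.4 ± 18.8 CPM in R, 51.7 ± 6.78 CPM in PS and 95.1 ± 52.6 CPM in NT. In the fit of 27 libraries the log2 fold change of R over RO was 2.55 ± 0.74 for Syt6, -1.08 ± 0.22 for Pclaf and -0.49 ± 0.29 for Top2a, and that of rPS over R was 1.26 ± 0.67, -0.76 ± 0.23 and -0.91 ± 0.30. None of these had an edgeR adjusted p under 0.05, the lowest being 0.171 for R over RO and 0.279 for rPS over R. Other cell cycle genes did not share one direction of R over RO. Cep55 (-1.52 ± 0.35), Uhrf1 (-0.54 ± 0.23) and Mybl1 (-1.59 ± 0.34) were negative. Mki67 (0.48 ± 0.36), Rrm2 (0.23 ± 0.35) and Hist1h2bf (0.51 ± 0.39) were positive. The mitosis list summed to 206 to 581 CPM in R (median 426.5) and 317 to 486 CPM in RO (median 410). Malat1 and mt-Rnr2, abundant in every drug group, were listed at 0 in all NT libraries, so NT levels of these genes are not compared.

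**Figure D5:**
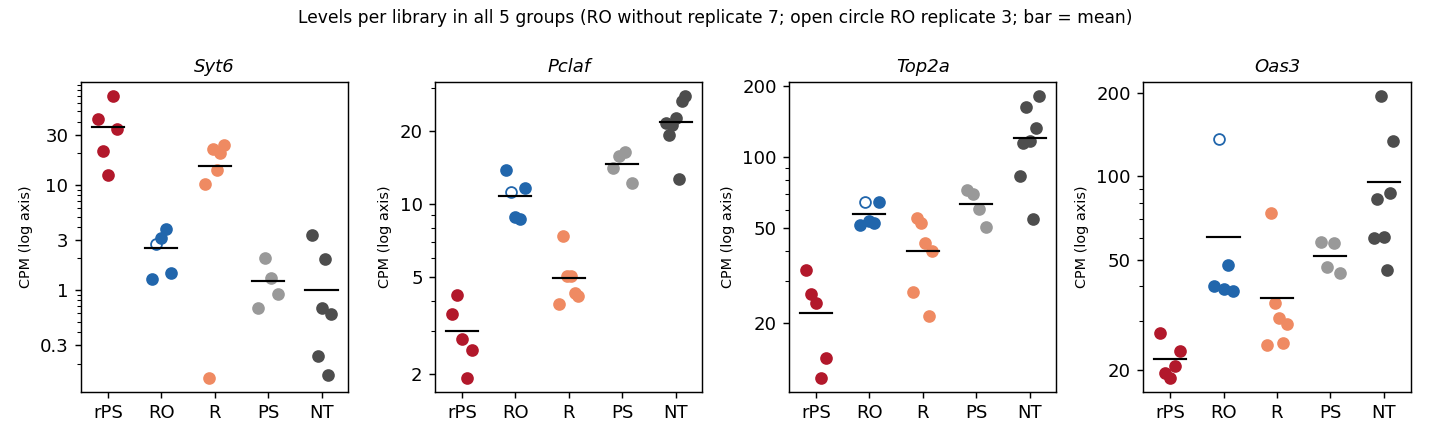
Level of Syt6, Pclaf, Top2a and Oas3 in each library of the 5 groups in CPM on log axes, with a bar at the mean, RO replicate 3 as an open circle and RO replicate 7 left out. 1 NT library with no Syt6 count is not drawn. Syt6 is high in rPS and in 5 of the 6 R libraries, and Pclaf is on average lowest in rPS, where it overlaps R.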

How the data were processed

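Bulk RNA sequencing of magnetically sorted spleen T cells gave 1 table per mouse. The authors deposited expected counts per gene, of which 21.3 to 25.0% of the values above 0 were fractional. Reads were handled with Trimmomatic 0.39, STAR 2.7.5a, Cufflinks 2.1.1 and Cuffdiff on GRCm39, per the submitters' processing notes; for the tool that counted reads, its annotation and its use of strand, nothing is given in the sources used here, so overlapping and near-identical genes may share reads. Although the series is described as single cell, each file holds 1 mouse.

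Expected counts were rounded to whole numbers. Symbols were matched for 52082 of 55413 IDs (94.0%). Genes passing filterByExpr were fitted with edgeR 4.0.16 (TMM, robust quasi-likelihood test, Benjamini-Hochberg adjustment over all genes tested, threshold 0.05) under R 4.3.3; DESeq2 1.42.0 and limma 3.58.1 were alternatives. An SE is the log2 fold change in absolute value, divided by the square root of F. Groups do not overlap where every CPM of one lies beyond every CPM of the other. A floor of 3 counts was 0.333 to 0.7 CPM in rPS and 0.212 to 0.635 CPM in RO, which covers counting error only. Nothing in the labels says more of the replicates than separate mice. The scripts were tested on simulated data.

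The genes named are the 10 with the smallest p in each fit, since none was called, among genes with a mean of at least 2 CPM and a symbol other than a predicted gene's, and 32 chosen mostly for their lineage or pathway. The members and the 43 lists were chosen with earlier results of these data known. The promoter search and the segment families were added after values were seen, since too few genes were called for the search as first planned. Replicate numbers shared by the groups did not pair the samples. RO replicate 7 was left out of all fits. Some genes of the lists are not reported here by name.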

Additional observations from a re-analysis of the deposited data

Results flagged for a closer look

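In 108 groups of 5 values, chance alone would set about 1 in 20 apart by the gap used here, and 19 values stood apart from the others of their group. Most were those of RO replicate 3. It was the highest RO library in Ighg2c (313 CPM), Oas3 (137 CPM), Dmbt1 (21.5 CPM), Klrg1 (6.43 CPM), Lyz2 (3200 CPM), S100a8 (13.1 CPM) and Cpa1 (31.4 CPM), and the lowest in Cd3e (46.9 CPM) and Cd8a (81 CPM). The same library had the highest RO sums of NK cell genes (810 CPM), neutrophil genes (915 CPM), monocyte and macrophage genes (12700 CPM), dendritic cell genes (2470 CPM) and pancreatic acinar genes (482 CPM). In rPS, replicate 5 had the lowest sums of neutrophil genes (22.7 CPM) and dendritic cell genes (216 CPM), and replicate 1 had the highest Ighg2c (12.5 CPM). RO replicate 4 was the lowest RO library in Mybl1 (2.0 CPM), and RO replicate 5 had the lowest RO sum of stromal and endothelial genes (219 CPM).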

How the results depend on the processing

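The count of genes called by edgeR was 0 under DESeq2's size factors, without a filter, with other library sizes, with a covariate for T cell content and without any 1 library; it was 40 by DESeq2, 1 by limma voom, 3 in the fit of 27 libraries and 8 without the 6 of those with low Cd3e. Without RO replicate 3 it was 31 by DESeq2 and 1 by limma voom. Leaving out 1 library at a time gave 609 to 1267 genes at an unadjusted p under 0.05. With a replicate block edgeR called 0 genes, and 331 had an unadjusted p under 0.05. Only numbers 1, 4 and 5 occur in both groups, so that fit compared the groups through those libraries alone. With so few libraries its lack of calls says little, and its fold changes leave the other libraries out. Libraries with the same number had deviation correlations of -0.22, -0.05 and 0.57 for numbers 1, 4 and 5. Not every library correlated best with its own number. The Cd4 to Cd8a difference was -0.25 with Cd8b1 in place of Cd8a, and ran from -0.19 to 0.41 with 1 library left out, turning sign without rPS replicate 4, rPS replicate 5 or RO replicate 4. Genes near 0 turned sign. Cd3e was -0.21 by limma voom, -0.23 with the replicate block, -0.14 with the covariate and -0.16 in the fit of 21 libraries. Cd8a was -0.14, -0.35 and -0.05 by limma voom, the block and the 21 libraries, and Foxp3 -0.01, -0.18 and -0.06 by limma voom, the covariate and the 21 libraries. With the covariate, Cd4 was -0.07, Fkbp1a -0.02 and mt-Rnr2 -0.21, and mt-Rnr2 was -0.69 by limma voom and Lyz2 0.05 in the 21 libraries. With 1 library left out, or both RO replicate 3 and rPS replicate 5, the ranges were -0.39 to 0.23 for Cd3e, -0.27 to 0.47 for Cd4, -0.09 to 0.43 for Cd8a, -0.31 to 0.37 for Foxp3, -0.05 to 0.11 for Fkbp1a, -2.3 to 0.35 for Lyz2 and -0.49 to 0.42 for mt-Rnr2. Of the list medians under all alternatives, 812 kept within their spread and 48 moved; with 1 library left out, 15 of the 43 turned sign, none of them the mitosis, S phase, histone, interferon, naive T cell, effector, NK, JAK-STAT5, germinal centre, B cell, plasma cell or ribosome biogenesis list. The cause of these shifts was not tested. Genes under about 1 CPM rest on a few counts per library.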

Other observations

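RO replicate 7, left out of the fits, holds counts for chromosomes 1 to 11, and its levels scaled to the total of those chromosomes can be set beside the others scaled alike. Syt6 was at 19.1 to 107 CPM in the rPS libraries, against 5.97 CPM in RO replicate 7 and 1.97 to 5.87 CPM in the other RO libraries. Pclaf was at 3.01 to 6.46 CPM in rPS, against 18.2 CPM in RO replicate 7 and 13.3 to 21.3 CPM in the other RO libraries. Top2a was at 18 to 51.7 CPM in rPS, against 75.9 CPM in RO replicate 7 and 79.8 to 99.7 CPM in the others. Oas3 was at 28.8 to 41.9 CPM in rPS, against 67.5 CPM in RO replicate 7 and 59.7 to 212 CPM in the others. For these 4 genes RO replicate 7 thus lay outside the rPS range, on the side of the RO libraries. Igkv12-46 was at 1.4 to 5.4 CPM in rPS, against 21 CPM in RO replicate 7 and 7.48 to 43.0 CPM in the others.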
